A study of Mus musculus with 9 samples.

Results

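Central carbon metabolism was followed through 45 listed genes: glycolytic enzymes with the glucose transporter Slc2a1 and the regulator Pfkfb3, lactate dehydrogenases, the pyruvate dehydrogenase complex and its 4 kinases, and enzymes of the tricarboxylic acid (TCA) cycle, among them the cytosolic relatives Idh1 and Mdh1. A gene entered through a probe set that the platform annotation gives to that gene alone, and where there were several, through the one with the highest mean over all 9 arrays. Of the 45 genes, 42 had such a probe set, among 18193 genes in all. Gpi1, Gapdh and Eno1 had none and are not analysed here as members.

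Glycolysis converts glucose to pyruvate in the cytosol, and lactate dehydrogenase interconverts pyruvate and lactate. The pyruvate dehydrogenase complex turns pyruvate into acetyl-CoA in the mitochondrion and is switched off by the Pdk kinases, and the TCA cycle oxidises that acetyl-CoA and feeds the respiratory chain. Hair follicles are known to turn much of the glucose they take up into lactate.

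Cells were sorted by flow cytometry from back skin of neonatal mice at postnatal day 2, and each of 3 mice, numbered 2, 4 and 5, gave 1 array per gate. Gate R3 held GFP+CD133+ cells, described as dermal papilla cells of guard, awl and auchene hairs. Gate R2 held GFP-CD133+ cells, described as papilla cells of zigzag hairs, and gate R1 held GFP-CD133- cells, the dermal pool left once papilla cells are taken out. The dermal papilla is a mesenchymal cluster at the follicle base, Prom1 encodes CD133, and in such mice GFP is known to report Sox2. The labels give no strain, sex or transgene, and no treatment is named for any gate. RNA came from sorted populations in bulk, so that fewer cells of a type and less RNA per cell cannot be told apart.

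All levels are on the log2 scale, and the median probe set of an array stood between 6.13 and 6.20. Olfactory receptors gave a guide to background: over 47 of their probe sets, the 95th percentile of an array lay between 5.12 and 5.44. Of the 42 members, 41 averaged above it in R3, 41 in R2 and 42 in R1, and the exception in R3 and R2 was Aldoc, a brain-type aldolase. Papilla markers followed the gates: 21 of them summed to 15.35 to 15.55 in R3, 14.75 to 14.82 in R2 and 13.96 to 14.07 in R1 (log2 of the summed level, lowest and highest array). R1 was no pure fibroblast pool, since 16 keratinocyte markers summed to 11.81 to 12.72 in R3 and 12.10 to 12.42 in R2, against 14.93 to 15.42 in R1. R3 carried 11 Schwann cell and glial markers at 13.03 to 13.19, against 9.37 to 9.66 in R2 and 10.52 to 11.08 in R1. The 14 endothelial markers stood at 10.43 to 10.79 in R3, against 12.44 to 12.78 in R2 and 11.05 to 11.27 in R1.

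R3 was set against R1 to ask how papilla cells of guard, awl and auchene hairs differ from the rest of the dermis. Of 17 TCA cycle members, 6 were lower in R3 (Cs, Idh1, Idh2, Suclg1, Fh1 and Mdh2), and the kinase Pdk3 was the single member called higher. Of 18 glycolysis and lactate dehydrogenase members, limma called 0 in either direction, and at an unadjusted p under 0.05 it gave 1 higher and 2 lower. When the probe sets of each gene were averaged, Aldoa and Tpi1 of these 18 were called lower, so this count depends on which probe sets stand for a gene. At an unadjusted p under 0.05 the backgrounds were 13.3% of all genes higher and 17.9% lower. In all, 7 of 42 members (16.7%) were called at an adjusted p under 0.05, against 18.7% of all genes, so that the share called was near the background. By direction, 14.3% of the members were lower, against 10.8% of all genes, and 2.38% higher, against 7.9%. The members' median log2 change was -0.19, against -0.01 over all genes.

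R2 was set against R1 in the same way for zigzag papilla cells. Idh1 alone was called, lower in R2, which is 2.38% of the members, against 13.1% of all genes (6.89% higher and 6.16% lower). The median log2 change was -0.08, against -0.02 over all genes, and at an unadjusted p under 0.05 there were 4 members higher and 8 lower, against 13.4% and 13.1% of all genes. Between the papilla gates, R3 against R2, limma called 0 of 42 members, against 5.03% of all genes (1.97% higher and 3.06% lower). At an unadjusted p under 0.05, 4 members were higher and 4 lower in R3, against 7.1% and 11% of all genes, and the median log2 change was -0.09, against -0.01 over all genes. Fitted alone, the genes above the median gene in level included 39 members. Of these, 2 were called in R3 against R2 (9.61% of those genes), 4 in R2 against R1 (23.7%) and 11 in R3 against R1 (33.6%). Each gate enters more than one comparison, so the comparisons share arrays and are not independent of each other.

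**Figure D1:**
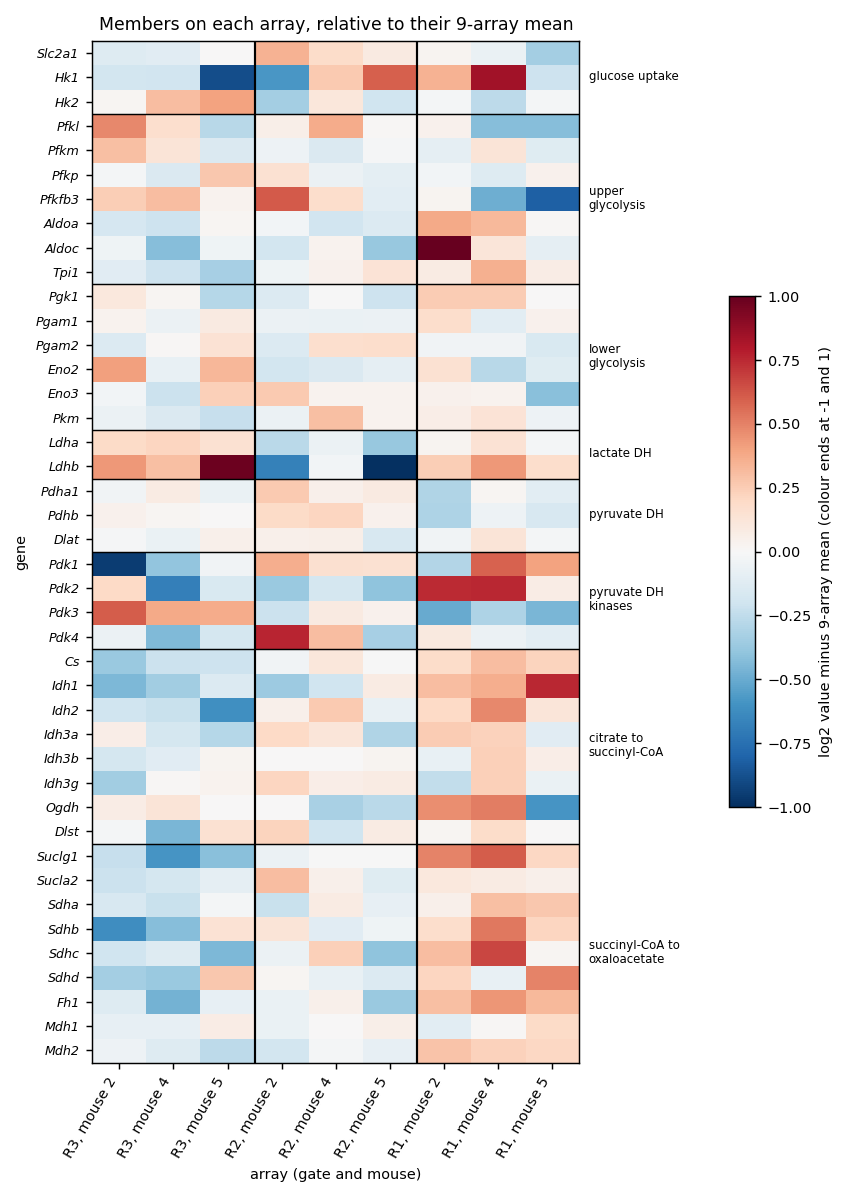
Log2 value of each of the 42 members on each of the 9 arrays, minus that gene's mean over the 9 arrays; rows are genes ordered by role, columns are arrays by gate (R3, R2, R1) and mouse, and the colour scale ends at -1 and 1. The lower rows, from Cs to Mdh2, are mostly blue in R3 and red in R1, while the glycolytic rows above are mixed. Of these lower rows, 17 of 17 averaged lower in R3 than in R1. With centred arrays 14 did, and with arrays quantile normalized again 16 did.

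The first steps, glucose uptake and phosphorylation, held no called gene in any comparison. Slc2a1, the transporter that brings glucose into the cell, had the lowest p of this group. It read 10.77, 10.79 and 10.90 in R3, 11.25, 11.08 and 10.99 in R2, and 10.93, 10.83 and 10.56 in R1 (mice 2, 4 and 5, in this order here and below). Every R2 array lay above every R3 and R1 array. The log2 change was 0.33 in R2 against R1 (standard error 0.14, n = 3 per gate, adjusted p = 0.153) and -0.28 in R3 against R2 (adjusted p = 0.313). Hk2, an inducible hexokinase, averaged 8.51 ± 0.20 in R3, 8.13 ± 0.23 in R2 and 8.17 ± 0.14 in R1 (SD, n = 3), and its R3 and R2 arrays overlapped. Hk1, a widely expressed hexokinase, varied between mice (6.14 to 6.85 in R3, 6.45 to 7.63 in R2, 6.82 to 7.87 in R1), and its change of -0.74 in R3 against R1 had a standard error of 0.35.

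The 7 measured upper glycolytic genes ranged in log2 change from -0.53 (Aldoc) to 0.61 (Pfkfb3) in R3 against R1, with 4 positive and 3 negative. Tpi1, triose phosphate isomerase, had the lowest p of the group: it read 10.79, 10.70 and 10.57 in R3, 10.86, 10.95 and 11.04 in R2, and 10.99, 11.26 and 10.98 in R1. All R3 arrays lay under all R2 and R1 arrays, and the change in R3 against R1 was -0.39 (standard error 0.13, adjusted p = 0.0646). Pfkfb3, which makes the fructose bisphosphate that activates phosphofructokinase, was picked out after its values were seen. It read 8.49, 8.55 and 8.28 in R3, 8.86, 8.42 and 8.14 in R2, and 8.27, 7.76 and 7.43 in R1, and within each mouse R1 was lowest. Its change was 0.61 in R3 against R1 (adjusted p = 0.109) and 0.65 in R2 against R1 (adjusted p = 0.112), and with the mouse as a fixed block it was called higher in both. The other Pfkfb3 probe set gave 0.27 and -0.03, and with both averaged the changes were 0.44 and 0.31 (adjusted p = 0.217 and 0.439). The phosphofructokinase subunits Pfkl, Pfkm and Pfkp had changes of 0.39, 0.12 and 0.07 in R3 against R1, none of them called, and the aldolase Aldoa had one of -0.36 (adjusted p = 0.109). Probe sets of these genes disagreed on the call when each was tested singly over all probe sets. In R3 against R1, 2 of the 4 other Aldoa probe sets were called lower (-0.74, adjusted p = 0.01, and -0.81, adjusted p = 0.0289), as was 1 of the other Tpi1 probe sets (-0.66, adjusted p = 0.0111). Another Pfkp probe set was called higher in R3 against R1 (0.63, adjusted p = 0.0368) and in R3 against R2 (0.75, adjusted p = 0.0483).

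The 6 measured lower glycolytic genes had log2 changes from -0.22 (Pgk1) to 0.31 (Eno2) in R3 against R1, from -0.24 to 0.36 in R3 against R2 and from -0.29 to 0.22 in R2 against R1. Eno2, the enolase best known from neurons, had the lowest p: it read 10.34, 9.86 and 10.26 in R3, 9.75, 9.79 and 9.84 in R2, and 10.08, 9.65 and 9.81 in R1. Its R3 arrays all lay above the R2 arrays but overlapped those of R1, and its change of 0.36 in R3 against R2 had an adjusted p of 0.282. Over the 3 comparisons, the changes of Pgk1 (phosphoglycerate kinase), Pgam1 (phosphoglycerate mutase) and Pkm (pyruvate kinase) lay between -0.29 and 0.08. Those of Pgam2 and Eno3, known from muscle, lay between -0.11 and 0.22. Gapdh could be read through an array control probe set for the 3' end, which gave 12.25, 12.26 and 12.15 in R3, 12.40, 12.54 and 12.38 in R2, and 12.51, 12.52 and 12.29 in R1. It stood outside the test, and its R3 arrays lay under every R2 and R1 array. So did those of the middle control probe set (10.15, 10.18 and 10.04 in R3, 10.33, 10.52 and 10.21 in R2, and 10.61, 10.59 and 10.23 in R1). Those of the 5' control probe set and of a probe set with several symbols did not.

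Promoter windows of 300 bases (250 before and 50 after the annotated start, RefSeq, GRCm38.p6) were found for 40 of the 42 members, 58 windows in all. The window of Pgk1 (chrX:106186850-106187149, + strand) is shown because it carries the core of the hypoxia response element, ACGTG, which is known to bind HIF factors and is also part of the E-box CACGTG. Capitals mark ACGTG on either strand, 150 and 131 bases before the start, and a CCAAT box 58 bases before it.
Pgk1: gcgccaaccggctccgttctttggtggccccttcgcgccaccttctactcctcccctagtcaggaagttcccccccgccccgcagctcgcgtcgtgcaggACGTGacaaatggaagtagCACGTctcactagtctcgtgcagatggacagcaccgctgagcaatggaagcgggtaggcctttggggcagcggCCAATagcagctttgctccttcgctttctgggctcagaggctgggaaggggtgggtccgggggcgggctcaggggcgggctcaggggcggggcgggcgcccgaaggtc
ACGTG on either strand was present in at least 1 window of 11 of 18 glycolysis and lactate dehydrogenase genes, and in 14 of their 28 windows, against 19.6% of 32851 mouse windows of the same length. It was present in 4 of 15 TCA genes with a window, in 9 of their 21 windows, and in 0 of the 6 genes called lower in R3. Such a match is a description of letters and not a binding site.

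Lactate dehydrogenase held the member with the widest spread in R2, Ldhb, the subunit best known from heart. Ldhb read 9.67, 9.54 and 10.22 in R3, 8.56, 9.21 and 7.37 in R2, and 9.48, 9.67 and 9.41 in R1. R2 was lowest in each mouse, below every array of R3 and R1, and its own arrays spread by an SD of 0.93. In R3 against R2 the log2 change was 1.43 (standard error 0.39, 2.69-fold, adjusted p = 0.0735), which missed the threshold. It was called in 4 of 14 alternative settings, one of them without the R2 array of mouse 4. Without the R2 array of mouse 5 the change was 0.92 (adjusted p = 0.0927). All 4 probe sets of Ldhb gave changes between 1.06 and 1.43 in R3 against R2 with every array kept. Tested singly over all probe sets, the one with a change of 1.29 was called (adjusted p = 0.0467). In R2 against R1 the change was -1.14 (adjusted p = 0.0892), and -0.64 without the R2 array of mouse 5.

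Ldha, the subunit best known from glycolytic tissue and a HIF target, read 11.59, 11.61 and 11.55 in R3, 11.13, 11.34 and 11.02 in R2, and 11.43, 11.54 and 11.38 in R1. Every R3 array lay above every array of R2 and R1, and every R2 array lay under every R1 array. The log2 change was 0.42 in R3 against R2 (standard error 0.12, adjusted p = 0.0945) and -0.29 in R2 against R1 (adjusted p = 0.167). In R3 against R1 the changes were 0.13 for Ldha and 0.28 for Ldhb, neither of them called.

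**Figure D2:**
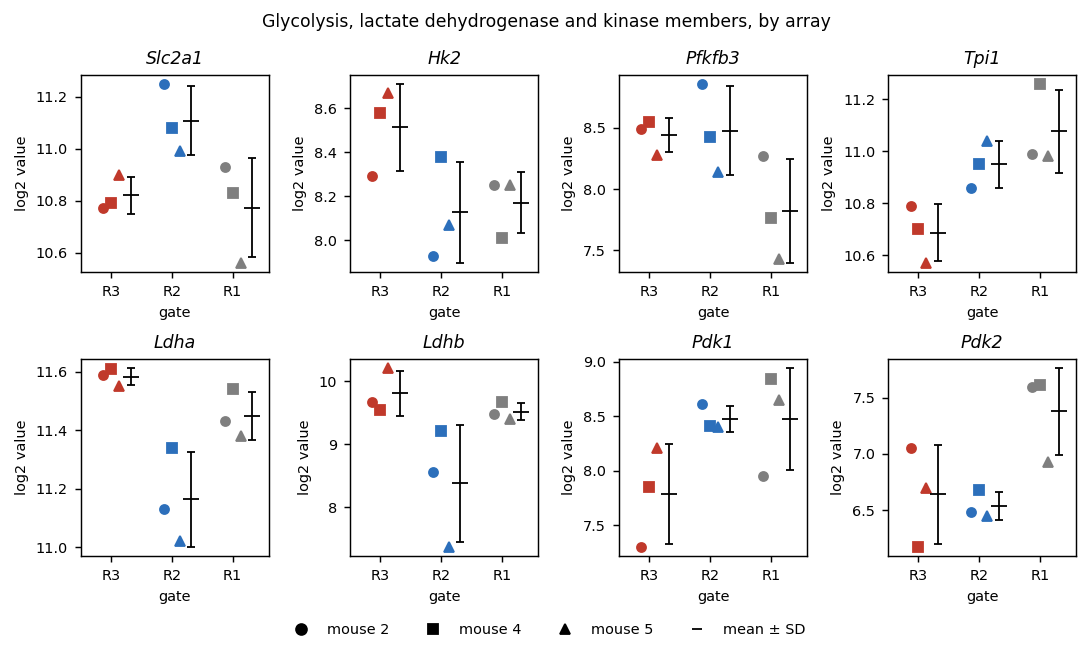
Log2 values of 8 members of glycolysis, lactate dehydrogenase and the kinases, chosen after their values were seen, on each array (points; shape marks the mouse) by gate, with the mean ± SD of 3 arrays beside them; the vertical scales differ between panels and do not start at 0. Ldha and Ldhb are lowest in R2 and Pdk2 averages highest in R1, and through the probe sets plotted none of the 8 passed the adjusted threshold.

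The 3 genes of the pyruvate dehydrogenase complex were not called in any comparison. Pdhb, the beta subunit of its first enzyme, had the lowest p and read 10.72, 10.70 and 10.68 in R3, 10.87, 10.89 and 10.72 in R2, and 10.37, 10.63 and 10.52 in R1. All R3 and R2 arrays lay above the R1 arrays, and the log2 change in R2 against R1 was 0.32 (standard error 0.12, adjusted p = 0.107). In the same comparison Pdha1, the alpha subunit, had a change of 0.26 and Dlat, the acetyltransferase core, one of -0.04. Their other probe sets differed there, with 0.01 for Pdhb, 0.06 for Pdha1, and -0.02 and 0.35 for Dlat, none of them called.

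Of the 4 kinases that inactivate the complex, Pdk3 was called. It read 8.66, 8.44 and 8.43 in R3, 7.84, 8.15 and 8.10 in R2, and 7.55, 7.75 and 7.60 in R1. The 3 gates did not overlap, with R3 highest and R1 lowest. In R3 against R1 it rose by 0.88 on the log2 scale (standard error 0.13, 1.84-fold, adjusted p = 0.00164), and it was called in 14 of 14 alternative settings. Its changes of 0.48 in R3 against R2 (adjusted p = 0.0772) and 0.40 in R2 against R1 (adjusted p = 0.0851) missed the threshold.

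The other kinases were not called, and their values are given after they were seen. Pdk1, known as a HIF target, read 7.30, 7.85 and 8.21 in R3, 8.61, 8.41 and 8.40 in R2, and 7.95, 8.84 and 8.65 in R1. R3 was lowest in each mouse, with log2 changes of -0.69 against R2 (adjusted p = 0.208) and -0.70 against R1 (adjusted p = 0.107). Of the 3 other Pdk1 probe sets, 2 gave changes of the opposite sign in both comparisons (0.01 to 0.46), and with all averaged the change against R1 was -0.17. Pdk2 read 7.05, 6.17 and 6.70 in R3, 6.48, 6.68 and 6.45 in R2, and 7.60, 7.61 and 6.93 in R1. Its change of -0.85 in R2 against R1 had an adjusted p of 0.0527, which narrowly missed the threshold, and 6 of 14 alternative settings called it. Pdk4, induced by fasting in muscle, averaged 7.55 ± 0.20 in R3, 8.03 ± 0.55 in R2 and 7.76 ± 0.11 in R1, and its gates overlapped.

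The promoter window of Pdk3 (chrX:93832101-93832400, - strand) is shown as that of the member called higher, with its ACGTG 53 bases and its CCAAT box 120 bases before the start in capitals.
Pdk3: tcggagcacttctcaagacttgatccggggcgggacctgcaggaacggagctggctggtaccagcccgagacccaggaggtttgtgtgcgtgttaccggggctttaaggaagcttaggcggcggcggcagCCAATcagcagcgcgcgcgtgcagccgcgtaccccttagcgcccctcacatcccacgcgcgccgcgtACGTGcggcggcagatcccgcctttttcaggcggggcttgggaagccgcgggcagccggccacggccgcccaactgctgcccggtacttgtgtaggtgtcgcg
The CCAAT box, known to bind NF-Y, was present in 37.4% of all windows.

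In the first arm of the TCA cycle, from citrate to succinyl-CoA, 3 of 8 members fell in R3 against R1 (37.5%, against 10.8% of all genes). Cs, citrate synthase, which admits acetyl-CoA to the cycle, read 11.20, 11.36 and 11.37 in R3, 11.54, 11.69 and 11.57 in R2, and 11.76, 11.88 and 11.80 in R1. The gates did not overlap, R3 being lowest and R1 highest. Cs fell by 0.50 on the log2 scale in R3 against R1 (standard error 0.11, 1.42-fold, adjusted p = 0.0129). In R3 against R2 its change was -0.29 (adjusted p = 0.213). Tested singly over all probe sets in R3 against R1, another Cs probe set was called lower (-0.69, adjusted p = 0.0249). The remaining one was not (-0.32, adjusted p = 0.505).

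Idh1, the cytosolic NADP-dependent isocitrate dehydrogenase and so no enzyme of the cycle itself, read 9.85, 9.95 and 10.16 in R3, 9.94, 10.10 and 10.38 in R2, and 10.61, 10.66 and 11.05 in R1. The R3 and R2 arrays overlapped, and all lay under the R1 arrays. Idh1 fell by 0.78 in R3 against R1 (standard error 0.17, 1.72-fold, adjusted p = 0.0105) and by 0.63 in R2 against R1 (standard error 0.17, 1.55-fold, adjusted p = 0.0383). The call in R2 against R1 held in 7 of 14 alternative settings, and it was lost with centred arrays, with only the 6 arrays of the comparison and without any single array of R2 or R1 other than the R2 array of mouse 5. Its probe set may also match related transcripts, and the second probe set of Idh1, of the same kind, gave the same calls.

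Idh2, the mitochondrial NADP-dependent relative, read 9.63, 9.61 and 9.22 in R3, 9.88, 10.09 and 9.76 in R2, and 10.03, 10.31 and 9.95 in R1. All R3 arrays lay under those of R2 and R1, which overlapped. It fell by 0.61 in R3 against R1 (standard error 0.16, 1.52-fold, adjusted p = 0.0293). The call held in 9 of 14 alternative settings, and was lost with centred arrays, with only the 6 arrays of the comparison, and without the R1 array of mouse 2 or 4 or the R3 array of mouse 5. The other Idh2 probe set, tested singly over all probe sets, was not called (-0.65, adjusted p = 0.107). Idh3a, Idh3b and Idh3g, the subunits of the NAD-dependent enzyme of the cycle, had changes of -0.26, -0.16 and -0.07, none of them called. Ogdh and Dlst, parts of the oxoglutarate dehydrogenase complex, had changes of -0.06 and -0.18, and Ogdh had the widest spread of any member in R1 (SD 0.62).

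**Figure D3:**
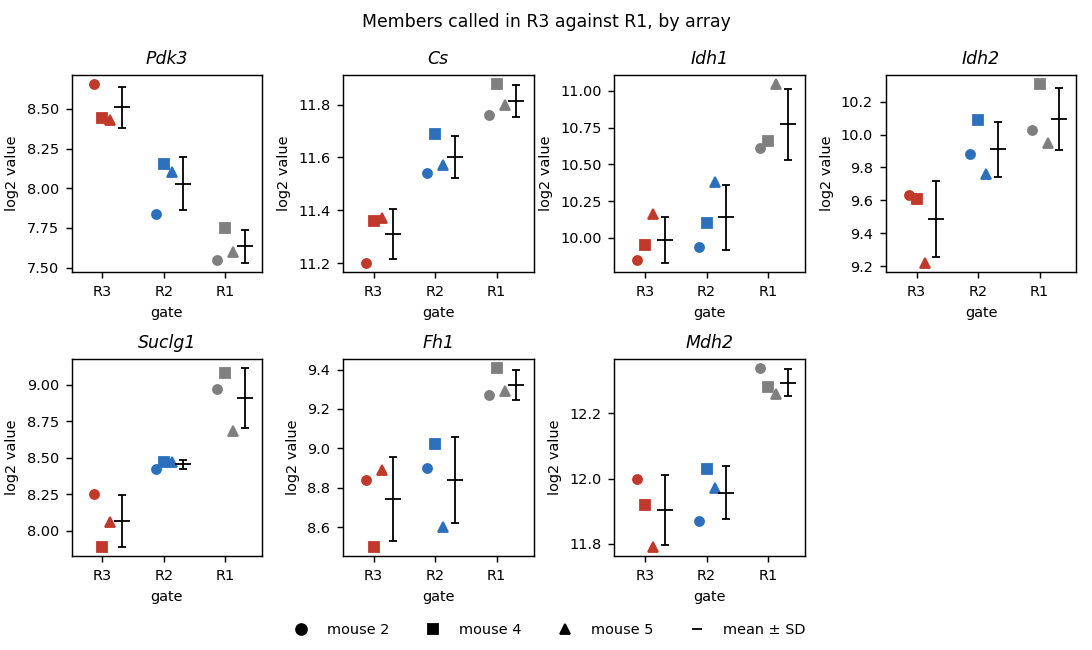
Log2 values of the 7 members called in R3 against R1, on each array (points; shape marks the mouse) by gate, with the mean ± SD of 3 arrays beside them; the vertical scales differ between panels and do not start at 0. Pdk3 is highest in R3, and in the other 6 panels every R3 array lies under every R1 array.

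In the second arm, from succinyl-CoA to oxaloacetate, 3 of 9 members fell in R3 against R1 (33.3%, against 10.8% of all genes). Suclg1, the alpha subunit of succinyl-CoA ligase, read 8.25, 7.89 and 8.06 in R3, 8.42, 8.47 and 8.47 in R2, and 8.97, 9.08 and 8.68 in R1. The gates did not overlap, R3 being lowest. It fell by 0.85 in R3 against R1 (standard error 0.14, 1.80-fold, adjusted p = 0.00309), the largest fall among the members in that comparison, and was called in 14 of 14 alternative settings, as were Cs and Idh1. Sucla2, the ADP-specific beta subunit, had a change of -0.25 (adjusted p = 0.248).

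Fh1, fumarase, read 8.84, 8.50 and 8.89 in R3, 8.90, 9.02 and 8.60 in R2, and 9.27, 9.41 and 9.29 in R1. R3 and R2 overlapped, and both lay under R1. Fh1 fell by 0.58 in R3 against R1 (standard error 0.15, 1.50-fold, adjusted p = 0.0274). It was called in 10 of 14 alternative settings, but not without the R1 array of any one mouse or the R3 array of mouse 4. Mdh2, mitochondrial malate dehydrogenase, read 12.00, 11.92 and 11.79 in R3, 11.87, 12.03 and 11.97 in R2, and 12.34, 12.28 and 12.26 in R1. All R3 and R2 arrays lay under the R1 arrays. It fell by 0.39 in R3 against R1 (standard error 0.11, 1.31-fold, adjusted p = 0.0431), a call that held in 4 of 14 alternative settings and was lost with centred arrays or without any single array of R3 or R1. Tested singly over all probe sets, this Mdh2 probe set was not called (adjusted p = 0.0573). The other Mdh2 probe set was called lower (-0.57, adjusted p = 0.0187). Cytosolic Mdh1 had a change of -0.06.

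Sdha, Sdhb, Sdhc and Sdhd, the subunits of succinate dehydrogenase, which is also part of the respiratory chain, had changes of -0.34, -0.61, -0.60 and -0.36 in R3 against R1. None passed, the lowest adjusted p being 0.0633 for Sdhb. Sdhb read 9.24, 9.44 and 10.01 in R3, 9.99, 9.75 and 9.82 in R2, and 10.04, 10.39 and 10.08 in R1. The R3 array of mouse 5 stood above the other R3 arrays, and Sdhb was called without it.

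Together the 17 TCA members had a median log2 change of -0.36 in R3 against R1, against -0.01 over all genes; all 17 changes were negative, but 14 were with each array centred on its median and 16 with arrays quantile normalized again. The 6 called lower are 35.3% of the 17, against 10.8% of all genes. Among genes above the median gene in level, fitted alone, 8 of the 17 were lower, against 18.8% of those genes. The R3 arrays of 10 TCA members all lay under the R1 arrays, which was so for 18.9% of all genes. The count of 6 became 3 without the R1 array of mouse 2 or of mouse 4, and 4 without the R3 array of mouse 4 or with centred arrays. In R2 against R1 the median of the TCA members was -0.27 and in R3 against R2 it was -0.15. The 18 glycolysis and lactate dehydrogenase members had a median of 0.08 in R3 against R1, with 11 positive and 7 negative changes, and the difference between these groups of genes was not tested.

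**Figure D4:**
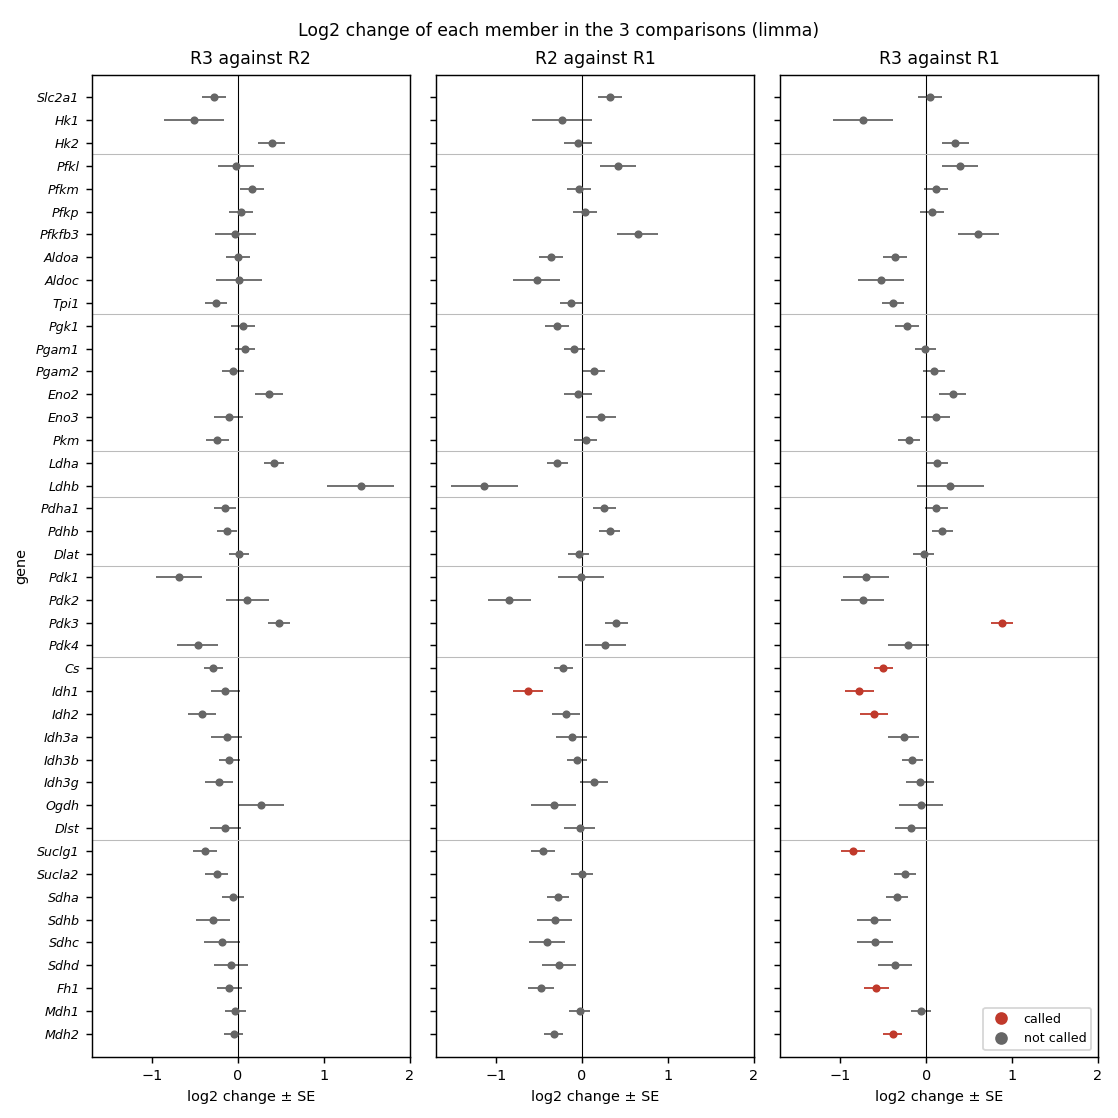
Log2 change ± standard error of each of the 42 members from limma, R3 against R2 (left), R2 against R1 (middle) and R3 against R1 (right), with called members in red. The right panel holds 7 red points, Pdk3 to the right of 0 and 6 TCA members to the left of it, the middle panel holds Idh1 alone, and the left panel holds none.

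Other cell types moved with the same contrast, in which 10.8% of all genes were called lower and 7.9% higher. All 16 keratinocyte markers were lower in R3 than in R1, at the summed levels given above, with Dsg1a in the background range in R3. The 15 leukocyte and mast cell markers summed to 11.43 to 11.72 in R3, against 13.74 to 14.18 in R1, and 11 were lower, with Cd52, Cd207, Cd69 and Ms4a2 in the background range in R3. The 8 melanocyte markers summed to 9.26 to 10.13 in R3, against 11.16 to 11.58 in R1, and 7 were lower, with Tyr and Slc45a2 in the background range in R3. The 6 adipocyte markers summed to 11.63 to 12.20 in R3, against 13.44 to 13.68 in R1, and 4 were lower, with Adipoq in the background range in R3. Among these 6, Fabp4 alone averaged 11.49 in R3 and 12.87 in R1. Fabp4 and Pparg are also counted among the fatty acid genes below, so these lists are not independent. The 16 skeletal muscle markers summed to 10.77 to 11.09 in R3, against 10.03 to 10.45 in R1, with 1 higher and 6 lower, and 9 of them, among these Myod1, Myf5, Myog and Ckm, in the background range in R3. The 11 dermal fibroblast markers summed to 15.47 to 15.53 in R3, against 16.20 to 16.24 in R1, and 7 were lower. Schwann cell and glial markers had 8 of 11 higher, endothelial markers 2 of 14 higher and 7 lower, and pericyte and smooth muscle markers 2 of 10 higher and 5 lower. Of 22 cell cycle genes 16 were lower in R3 (72.7%, against 10.8% of all genes) and 0 higher, with summed levels of 13.55 to 13.75 in R3 and 14.39 to 14.44 in R1. In R2 against R1, where Idh1 fell, 16 of 16 keratinocyte, 12 of 15 leukocyte and mast cell and 6 of 8 melanocyte markers were lower, against 6.16% of all genes. Of 14 endothelial markers 11 were higher, against 6.89% of all genes. The part of these cells, and of cell division, in the lower TCA values was not tested.

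The promoter windows of Cs (chr10:128337477-128337776, + strand) and Suclg1 (chr6:73248255-73248554, + strand) are shown as those of called members at the head of each arm of the cycle. Capitals mark CCAAT, 116 and 55 bases before the start of Cs, and the window of Suclg1 held none of the letters searched.
Cs: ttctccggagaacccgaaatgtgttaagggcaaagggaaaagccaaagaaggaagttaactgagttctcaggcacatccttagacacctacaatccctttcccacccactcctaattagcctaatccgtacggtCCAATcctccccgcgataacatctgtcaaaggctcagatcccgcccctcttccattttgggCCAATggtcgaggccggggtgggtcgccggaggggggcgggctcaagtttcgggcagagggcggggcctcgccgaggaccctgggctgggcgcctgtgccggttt
Suclg1: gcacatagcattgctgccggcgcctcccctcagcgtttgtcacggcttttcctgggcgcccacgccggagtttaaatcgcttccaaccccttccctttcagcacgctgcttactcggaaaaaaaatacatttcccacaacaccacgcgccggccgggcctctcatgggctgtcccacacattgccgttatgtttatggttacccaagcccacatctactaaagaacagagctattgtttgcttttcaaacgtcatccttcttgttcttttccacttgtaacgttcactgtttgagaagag
Both strands were also searched for motifs of 3 factors known to drive mitochondrial genes: the NRF1 palindrome, AAGGTCA (a half-site of ERR receptors) and CCGGAAG (GABP). They were present in 4.60%, 4.72% and 8.86% of all windows. Of the 15 TCA genes with a window, 3, 2 and 5 held them, and 0 of the 6 called lower did. Those 6 have 7 windows, too few to tell 0 from such shares. CCAAT was present in 4 of those 6 and in 9 of the 15. No match says only that these letters are not in this window.

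Further genes of these pathways were read from the same fit. Of 46 genes of the respiratory chain and ATP synthase, 18 fell in R3 against R1 (39.1%, against 10.8% of all genes) and 0 rose; 45 of 46 changes were negative, and 44 with centred or again quantile normalized arrays, with a median of -0.40. Cox6c, a subunit of cytochrome c oxidase, read 12.47, 12.67 and 12.58 in R3, 13.10, 12.96 and 12.98 in R2, and 13.42, 13.59 and 13.43 in R1. Its gates did not overlap, and it fell by 0.90 in R3 against R1 (adjusted p = 0.000657). Atp5o of ATP synthase fell by 0.90 (adjusted p = 0.000964), and the changes of Ndufa9 and Ndufb9 of complex I were -0.93 and -0.83 (adjusted p = 0.00138 and 0.00231). The count became 6 without the R3 array of mouse 4, 8 without the R1 array of mouse 4, 9 without the R3 array of mouse 2, 10 without the R1 array of mouse 2 and 11 with centred arrays. In R2 against R1, 6 of the 46 fell and 0 rose, against 6.16% and 6.89% of all genes. That count of 6 became 2 without the R2 array of mouse 4 and 3 without the R2 or the R1 array of mouse 2. In R3 against R2 limma called 0 of the 46, against 3.06% of all genes lower and 1.97% higher. At an unadjusted p under 0.05, 9 of the 46 were lower and 0 higher, against 11% and 7.1% of all genes.

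Of 19 other TCA and pyruvate dehydrogenase genes, 3 fell in R3 against R1 and 0 rose, and 15.8% lower is near the 10.8% of all genes. Sdhaf1, an assembly factor of succinate dehydrogenase, fell by 0.84 (adjusted p = 0.00416), Got1, cytosolic aspartate aminotransferase, fell by 1.12 (adjusted p = 0.0176) and Suclg2, the GTP-specific partner of Suclg1, fell by 0.60 (adjusted p = 0.0454). The count became 1 without the R1 array of mouse 2 or mouse 4 or the R3 array of mouse 5. Of 7 pentose phosphate genes, only H6pd, the hexose-6-phosphate dehydrogenase of the endoplasmic reticulum, was called, which is 14.3% lower in each comparison with R1. That is near the 10.8% of all genes in R3 against R1, and stands against 6.16% in R2 against R1. H6pd was called with a change of -0.98 in R3 against R1 and of -1.11 in R2 against R1. The first of these calls was lost without the R1 array of mouse 2 or 4 or the R3 array of mouse 5, and the second without the R1 array of mouse 2 or the R2 array of mouse 4.

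Of 25 other glycolysis and pyruvate genes, 3 rose and 3 fell in R3 against R1, which is 12.0% each way, near the 7.9% and 10.8% of all genes, and 3 in all without the R1 array of mouse 5. Bpgm, bisphosphoglycerate mutase, read 11.67, 11.46 and 11.88 in R3, 11.28, 11.05 and 10.99 in R2, and 10.54, 9.98 and 10.21 in R1. Its gates did not overlap, and it rose by 1.43 in R3 against R1 (adjusted p = 0.000511) and by 0.86 in R2 against R1 (adjusted p = 0.0115). Pgm2, a phosphoglucomutase, rose by 0.79 in R3 against R1. Slc2a3, a second glucose transporter, read 7.54, 6.20 and 7.0 in R3, 8.06, 8.54 and 8.49 in R2, and 8.73, 8.70 and 8.56 in R1. It fell by 1.75 in R3 against R1 (adjusted p = 0.00273) and by 1.45 in R3 against R2 (adjusted p = 0.0202). Fbp1, which reverses the phosphofructokinase step, fell by 2.26 in R3 against R1, with an R3 mean of 4.69, in the background range.

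In R3 against R2, Slc2a3, Gpd1l (a glycerol phosphate dehydrogenase) and Tigar (which breaks down the product of Pfkfb3) fell, with changes of -1.45, -1.04 and -0.53, and none of the 25 rose (12.0% lower, against 3.06% of all genes). The count became 1 with the mouse as a fixed block, 0 with only the 6 arrays of the comparison, 0 without the R2 array of mouse 4 or mouse 5, and 1 without the R3 array of mouse 2 or mouse 4. In R2 against R1, Bpgm and Pgm2 rose and Slc16a3, which exports lactate, fell by 1.02 (adjusted p = 0.0457), which is 8.0% higher and 4.0% lower, against 6.89% and 6.16% of all genes. The count of called genes became 1 without the R2 array of mouse 4 or 5 or the R1 array of mouse 2 or 5. Slc16a3 read 6.03, 4.97 and 5.66 in R2, near the background range, and 6.49, 6.34 and 6.90 in R1. Its call was lost without any single array of R2 or R1 other than the R2 array of mouse 2. It was also lost with arrays quantile normalized again.

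**Figure D5:**
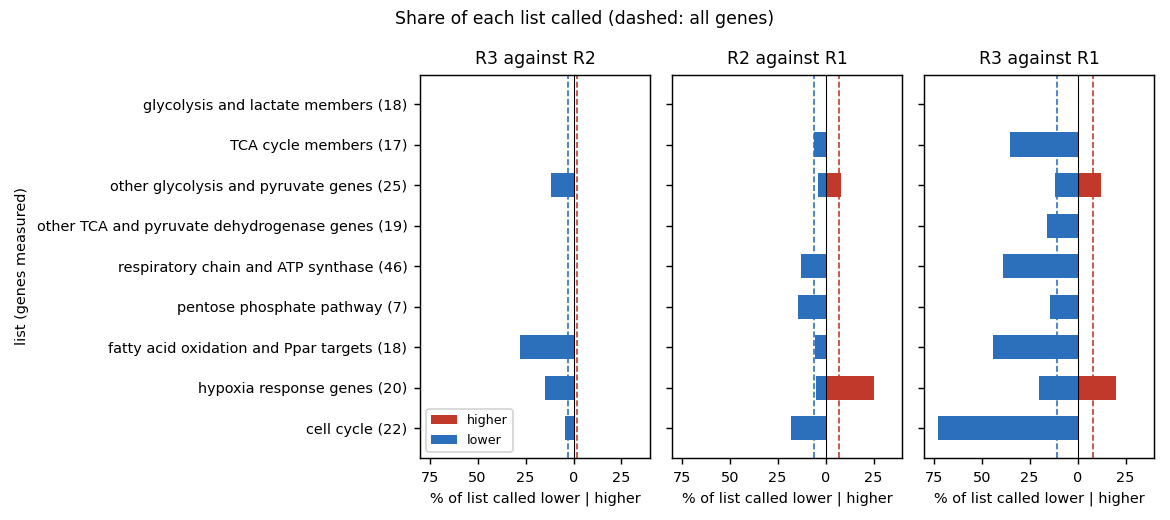
Share of each gene list called higher (red, to the right) or lower (blue, to the left) in R3 against R2, R2 against R1 and R3 against R1, in percent of the measured genes of the list (number in brackets), with dashed lines for all genes. In R3 against R1 the TCA members (35.3% lower) and the respiratory chain (39.1% lower) extend past the dashed line at 10.8%. The bar of the glycolysis members is empty there, though with averaged probe sets 2 of them were called lower.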

How the data were processed

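RNA of 9 sorted populations (3 gates, 3 mice) was amplified and hybridised to arrays of 1 colour, per the labels' protocols. The deposited levels are log2 values, made with RMA per the submitters' processing notes. The version of RMA, and whether all arrays went through it together, is not given in the sources used. The quantile step of RMA and the amplification can shrink folds and remove a shift common to most genes. Scanner files were not used here.

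Gene names came from the platform annotation: of 45101 probe sets, 34945 had 1 symbol and were no control, 932 had several symbols and 9211 had none. A gene with several probe sets was read through the one of highest mean, which gave 18193 genes. Gates and mouse numbers came from the labels. The gates were compared in limma 3.58.1 (R 4.3.3; lmFit, contrasts.fit, eBayes), with 1 coefficient per gate, all 9 arrays, no mouse block and no filter. Benjamini-Hochberg adjustment ran over all genes of a comparison, and an adjusted p under 0.05 was the call. Only 3 arrays per gate limit the precision. The p-values rest on the spread between arrays of the same gate, which come from different mice. Without a mouse block they do not use the differences within a mouse. The fit was checked on simulated data.

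Arrays of 1 number are from 1 mouse, per the labels, and so are paired. Deviations from the gate means correlated at -0.03 to 0.196 within a mouse and at -0.188 to 0.078 between mice. Because each gate's own mean was taken out, the values between mice depend on those within a mouse and are no separate baseline.

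The members and gene lists were chosen with earlier results of these data known, so no list was tested and no p was adjusted over a list. Named were all members called in any comparison, the member of lowest p in each role group without a call, and up to 4 called genes of lowest p per list and comparison; other members named singly were chosen after their values were seen. Alternatives were a fixed or random block for the mouse, each array left out, only the 6 arrays of a comparison, centred arrays, a second quantile normalization, averaged probe sets per gene, every probe set singly, only genes above the median gene, and a trend and robust variance. Promoter windows came from RefSeq (GRCm38.p6). Python 3.11.15 with pandas 2.3.3, numpy 2.4.6 and, for plots, matplotlib 3.10.9 made the tables.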

Additional observations from a re-analysis of the deposited data

How the results depend on the processing

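Across the alternatives, no called member changed sign. For R3 against R2 the count of 0 called members became 1 with centred arrays (Ldhb), 1 with the mean of all probe sets (Ldhb), 1 with a trend and robust variance (Ldha) and 2 among genes above the median gene (Ldhb and Pdk3), and it ran from 0 to 1 over the single arrays left out (1 without the R2 array of mouse 4). For R2 against R1 the count of 1 became 2 with the mouse as a fixed replicate block (Idh1 and Pfkfb3), 2 with it as a random block (Idh1 and Pdk2), 3 with quantile normalization again, 3 with a trend and robust variance, 5 when probe sets were averaged and 4 when only genes above the median gene were fitted. It ran from 0 to 3 over the single arrays left out: 0 without the R2 array of mouse 2 or the R1 array of mouse 4, and 3 without the R1 array of mouse 5. For R3 against R1 the count of 7 became 11 among genes above the median gene, of which 39 are members. It was 8 with the fixed block, which added Pfkfb3 and Sdhc and lost Mdh2, and it ran from 4 (without the R1 array of mouse 4) to 8 over single arrays. There, 4 TCA members were called with only the 6 arrays of the comparison or with centred arrays, and 5 with quantile normalization again. With averaged probe sets 7 were called, and with a trend and robust variance 8. Of the glycolysis and lactate dehydrogenase members, 2 were called lower with averaged probe sets and 1 lower with a trend and robust variance. With centred arrays or quantile normalization again, 1 was called higher. The members' median ran from -0.11 to -0.05 in R3 against R2, -0.12 to -0.06 in R2 against R1 and -0.23 to -0.14 in R3 against R1 over single arrays, and the last was -0.09 with centred arrays, where the median of all genes was 0.08. The cause of these differences was not tested.

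With 3 arrays per gate, sizeable changes missed the threshold where the spread was wide, such as that of 1.43 for Ldhb in R3 against R2 and of -0.85 for Pdk2 in R2 against R1. The gates hold mixed cells, and the values do not tell a change in a cell type's share from one within it. They are RNA levels and say nothing of enzyme activity or flux. Aldoc was in the background range in R3 and R2. Probe sets whose names end in x_at or s_at (among them those of Aldoa, Tpi1, Idh1, Sdha, Sdhc, Sdhd and Mdh1) may match related transcripts.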

Other observations

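Fatty acid and hypoxia genes were read from the same fit. Of 18 genes of fatty acid oxidation and Ppar targets, 8 fell in R3 against R1 (44.4%, against 10.8% of all genes) and 0 rose. Pparg and Fabp4 of this list are also among the adipocyte markers above. Pparg, a regulator of fat cell genes, read 6.69, 6.39 and 6.97 in R3, 8.45, 8.23 and 7.62 in R2, and 8.79, 8.54 and 8.56 in R1. It fell by 1.95 in R3 against R1 (adjusted p = 0.00034) and by 1.42 in R3 against R2 (adjusted p = 0.00593). Fabp4 and Cd36, which bind and take up fatty acids, fell in R3 against R1, with changes of -1.38 and -1.60, and Acaa2, a thiolase of mitochondrial fatty acid oxidation, fell by 1.09. In R3 against R2, 5 of the 18 fell (27.8%, against 3.06%) and 0 rose. The count was 3 without the R2 array of mouse 2 or 4 or the R3 array of mouse 5 and with arrays quantile normalized again. Without the R3 array of mouse 4, 3 fell and 1 rose. Markers of endothelium, which is known to express Fabp4 and Cd36, were lower in R3 than in R2 in 13 of 14 cases, and their part was not tested.

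Of 20 hypoxia response genes, 4 rose and 4 fell in R3 against R1 (20.0% each way, against 7.9% higher and 10.8% lower over all genes). Plod2, a collagen lysyl hydroxylase, read 11.53, 11.29 and 10.96 in R3, 10.35, 10.43 and 10.32 in R2, and 8.12, 8.92 and 7.97 in R1, without overlap, and rose by 2.93 in R3 against R1 (adjusted p = 4.98e-05). P4ha2, a collagen prolyl hydroxylase, fell by 1.92 and Egln3, which marks HIF for breakdown, fell by 2.48, while Vegfa rose by 1.07. In R3 against R2, Epas1, a HIF subunit known from endothelium, fell by 1.98, Egln3 fell by 2.17 and Ddit4 fell by 1.23, and 0 of the 20 rose (15% lower, against 3.06%). In R2 against R1, 5 rose, among them Plod2, Epas1 and Vegfa, and P4ha2 fell by 1.57 (25% higher and 5% lower, against 6.89% and 6.16%).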
